A study of Mus musculus with 6 samples.

Results

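The genes described here are 9 factors of meiotic crossover designation, Msh4, Msh5, Tex11, Rnf212, Ccnb1ip1, Mlh3, Cntd1, Prr19 and Hfm1. They were taken by gene name from a table of 54532 genes, in which each name occurred once. The libraries came from suspensions of mouse testis cells labelled STRA8+, a marker of germ cells entering meiosis. The knockout group held 3 libraries of conditional knockout animals and the control group held 3 libraries of animals labelled with the genotype Cre. The labels give neither the deleted gene, the driver of the Cre, the strain nor the age, and they do not say whether libraries came from separate animals, so p-values measure only the spread between these libraries. The study title names BCAS2 and hnRNPH1 and concerns splicing and DNA repair in meiosis, and the single comparison of the design asks which transcripts changed with the knockout.

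In meiotic prophase, programmed DNA breaks are made in excess and only a minority of them mature into crossovers, the exchanges that hold homologous chromosomes together until they segregate. MSH4 and MSH5 form a clamp, called MutSgamma, that stabilises joint DNA molecules, while the helicase HFM1 and the scaffold TEX11 act with it at early recombination sites. RNF212, a SUMO ligase, and HEI10, the ubiquitin ligase encoded by Ccnb1ip1, then restrict these factors to the sites that will cross over. CNTD1 and PRR19 are partners that act late, in pachytene, and are needed before the nuclease MutLgamma, which contains MLH3, marks the final crossover sites.

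Expression was measured as FPKM, fragments per kilobase of gene scaled for library size, as the authors deposited it. The recovered reads totalled 14770320 to 15204127 per knockout library and 14532453 to 16963019 per control library. The deposited divisor was 1.37 to 1.42 times the library's reads in the knockout and 0.691 to 0.774 times in the controls. Fold changes of the members, and counts of calls for the members and for gene lists, are therefore given as deposited and again rescaled. Fold changes of single genes in those lists are as deposited where no scaling is named. For the rescaling, reads were brought to 1000000 per library, as reads per kilobase and per 1000000. The rescaling raised the median log2 fold change of the 16791 genes tested by 0.83, to 0.42 against -0.41 as deposited. Bcas2, which encodes a splicing factor, had 4.78, 4.38 and 5.40 FPKM across the knockout libraries, against 19.8, 19.3 and 20.5 FPKM across the controls. Hnrnph1, which encodes a splicing regulator, had 128.8, 155.8 and 135.7 FPKM across the knockout libraries, against 61.2, 67.5 and 62.7 FPKM across the controls. The log2 fold changes were -1.93 as deposited and -1.06 rescaled for Bcas2, and 1.13 as deposited and 2.04 rescaled for Hnrnph1. The extraction protocol speaks of retinas, and the summed level of 7 photoreceptor genes was 0.631 to 0.913 FPKM in knockout libraries and 1.90 to 2.05 FPKM in control libraries. Of these genes, Sag made up most of each control sum, at 1.34, 1.26 and 1.16 FPKM. Across the knockout libraries Sag had 0.093, 0.111 and 0.125 FPKM. Stra8, the gene of the label, had 125.4, 136.8 and 136.2 FPKM across the knockout libraries, against 11.5, 22.6 and 17.02 FPKM across the controls, a log2 fold change of 2.98 as deposited and 3.88 rescaled. Among the libraries, knockout replicate 1 stood apart, with 221.1 FPKM of macrophage markers, against 66.2 and 81.5 FPKM in the other knockout libraries, and the highest Sertoli and Leydig sums of the knockout group, 728.1 and 66.7 FPKM. Without that library 4 members were called higher and 3 lower, as with it. Control replicate 1 had the lowest Sertoli and spermatogonial sums of its group, 87.2 and 76.8 FPKM. Those sums were 165.5 and 126.9 FPKM in control replicate 2 and 208.2 and 115.7 FPKM in control replicate 3. Pearson correlations of log2 levels between libraries were 0.984 to 0.987 within the knockout group and 0.969 to 0.975 within the control group.

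All 9 genes passed the filter of a mean of at least 1 FPKM, and they moved in both directions. Tex11, Msh5, Rnf212 and Ccnb1ip1 rose in the knockout, and Cntd1, Prr19 and Mlh3 fell, at a limma adjusted p under 0.05 over all genes tested. Across all genes tested, 36.2% were called higher and 50.4% lower in the knockout, so calls in either direction were common. The knockout libraries all lay above the control libraries for Tex11, Msh5 and Ccnb1ip1 and all below them for Cntd1, Prr19 and Mlh3. Among all genes tested the groups were so separated upward in 36.9% and downward in 51.1%. With reads rescaled, 6 members were called higher and 2 lower, against backgrounds of 50.6% higher and 38.9% lower. In bulk libraries fewer cells of a type and less RNA per cell cannot be told apart. The median log2 fold change of the 9 genes was -0.15 as deposited and 0.67 with reads rescaled.

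**Figure D1:**
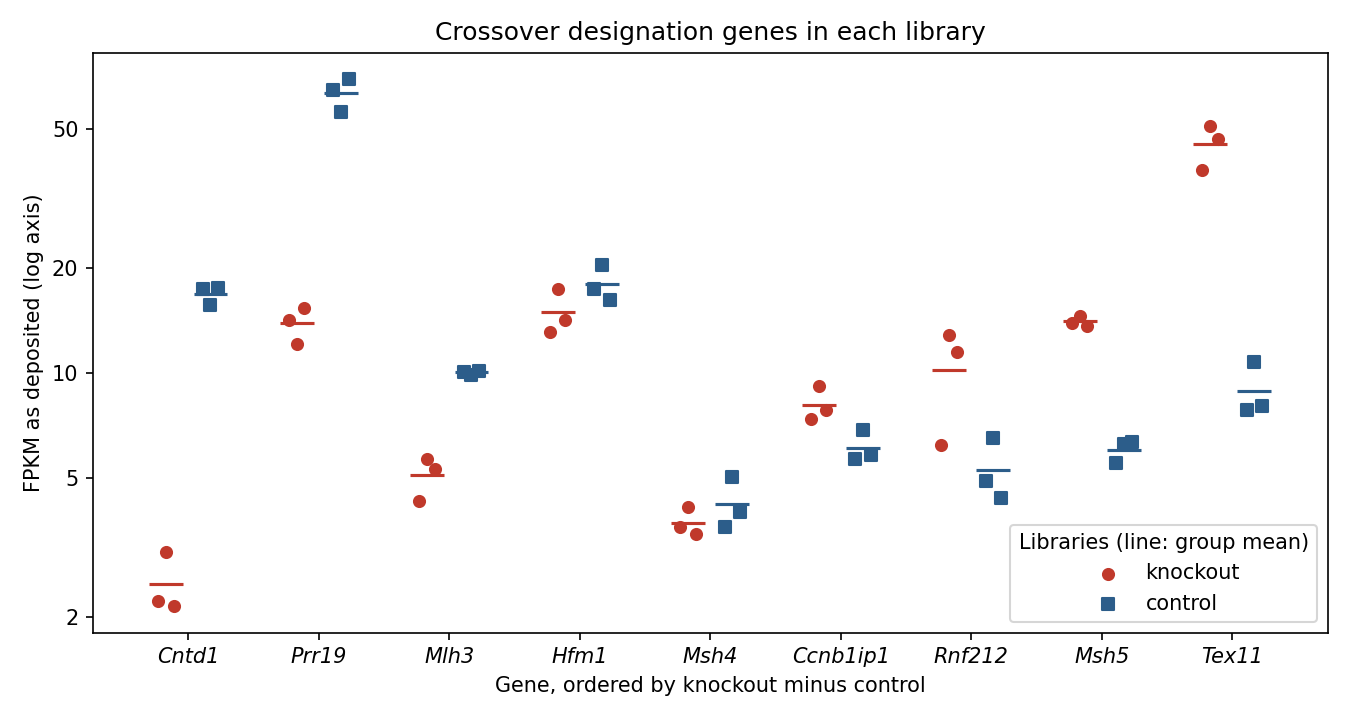
Level of each of the 9 genes in FPKM as deposited, on a log axis, in the 3 knockout libraries (circles) and the 3 control libraries (squares), with lines at the group means. Cntd1, Prr19 and Mlh3 lie lower in all knockout libraries, Ccnb1ip1, Msh5 and Tex11 lie higher, and the groups overlap for Hfm1, Msh4 and Rnf212.

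Among the early factors, Tex11 changed most. Tex11 (ENSMUSG00000009670) is a protein-coding gene of the X chromosome, at 100838648 to 101059667 in mm10, and encodes the counterpart of the yeast scaffold Zip4. Its level was 38.0, 51.0 and 46.9 FPKM across the knockout libraries, against 7.86, 10.8 and 8.04 FPKM across the controls. Every knockout library was more than 3 times the highest control library, and the means were 45.3 ± 6.63 FPKM in the knockout and 8.89 ± 1.62 FPKM in the controls (SD, n = 3 each). The log2 fold change was 2.29 ± 0.156 (SE) with a limma adjusted p of 2.9e-06, or 3.18 with reads rescaled (limma adjusted p of 1.5e-06). Tex11 ranked between 516 and 797 among the 16791 genes tested in the knockout libraries and between 6194 and 7618 in the control libraries, ranks that scaling of a library as a whole leaves as they are. Of 569 protein-coding X-linked genes tested, a set chosen after Tex11 was seen, 381 rose and 147 fell as deposited, with a median log2 fold change of 1.30, and 52 had a larger value than Tex11, beside 36.2% higher and 50.4% lower among all genes. With reads rescaled, 421 of them rose and 127 fell, with a median of 2.08, and 38 lay above Tex11, beside 50.6% higher and 38.9% lower among all genes.

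The subunits of MutSgamma differed. Msh5 (ENSMUSG00000007035, chromosome 17 at 35028605 to 35046745) had 13.9, 14.6 and 13.7 FPKM across the knockout libraries, against 5.52, 6.27 and 6.35 FPKM across the controls. Its groups were far apart and tight, with a log2 fold change of 1.16 ± 0.0990 (SE), a limma adjusted p of 1.1e-05, and 2.02 with reads rescaled. Msh4 (ENSMUSG00000005493, chromosome 3 at 153857149 to 153906138), which encodes its partner, had 3.62, 4.13 and 3.45 FPKM across the knockout libraries, against 3.63, 5.03 and 4.01 FPKM across the controls. The Msh4 groups overlapped, and the log2 fold change of -0.15 (95% interval -0.49 to 0.19) had a limma adjusted p of 0.36. Its sign depended on scaling: with reads rescaled Msh4 was called higher, at 0.67 with a limma adjusted p of 0.0056. Its rank among all genes tested was between 8209 and 8819 in the knockout libraries and between 9407 and 10807 in the control libraries. Scaling of a whole library leaves a rank as it is, but a rank also depends on how other genes moved.

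The ratio of the subunits within a library depends on scaling only through the pseudocount. The log2 ratio of Msh4 over Msh5 was -1.81, -1.70 and -1.84 in the knockout libraries and -0.54, -0.29 and -0.60 in the control libraries. Msh4 was therefore lower than Msh5 in all 6 libraries, with a ratio of mean FPKM of 0.265 in the knockout and 0.699 in the controls. The difference of -1.31 had a two-sided exact permutation p of 0.10, the smallest that 3 against 3 libraries allow, and 0.20 after Benjamini-Hochberg adjustment over 6 ratios. With Tex11 over Msh4 the log2 ratio was 3.23, 3.48 and 3.58 in the knockout libraries and 1.02, 1.02 and 0.92 in the control libraries. The groups did not overlap, and the difference of 2.44 again had an exact permutation p of 0.10 (0.20 adjusted). Since Msh4 was not called as deposited, this ratio largely restates the rise of Tex11. Levels of single genes were separate upward in 36.9% and downward in 51.1% of all genes tested, and the share among other gene pairs was not computed.

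Hfm1 (ENSMUSG00000043410, chromosome 5 at 106840192 to 106926321), which encodes the counterpart of the yeast helicase Mer3, had 13.1, 17.4 and 14.2 FPKM across the knockout libraries, against 17.4, 20.4 and 16.2 FPKM across the controls. The groups overlapped, and the log2 fold change of -0.26 (95% interval -0.58 to 0.05) had a limma adjusted p of 0.10. Without knockout replicate 2 the fall passed the threshold, at -0.38 with a limma adjusted p of 0.032. With reads rescaled the sign turned and Hfm1 was called higher, at 0.63 with a limma adjusted p of 0.0036. Hfm1 ranked between 2667 and 3510 in the knockout libraries and between 3973 and 4756 in the control libraries. The log2 ratio of Hfm1 over Msh4 was 1.73, 1.95 and 1.90 in the knockout libraries and 2.11, 1.92 and 1.89 in the control libraries. These overlap, with a difference of -0.11 and an exact permutation p of 0.50.

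**Figure D2:**
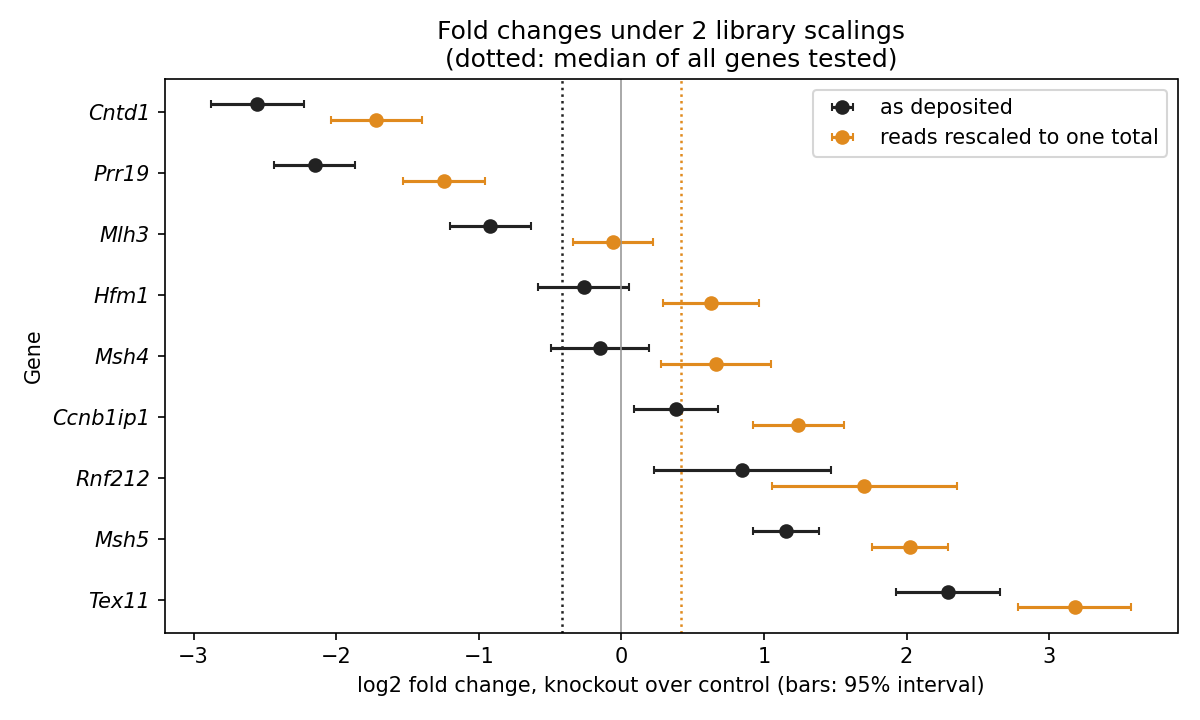
log2 fold change of the 9 genes, knockout over control, with 95% intervals, from FPKM as deposited (black) and from reads rescaled to 1000000 per library (orange), with dotted lines at the median of all genes tested. Cntd1 and Prr19 lie below 0 and Tex11, Msh5, Rnf212 and Ccnb1ip1 above 0 under both scalings, while Msh4 and Hfm1 change sign and Mlh3 is near 0 with reads rescaled.

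As deposited, the ligases that select crossover sites rose modestly and with less certainty. Rnf212 (ENSMUSG00000055385, chromosome 5 at 108729290 to 108774982) had 6.22, 12.9 and 11.5 FPKM across the knockout libraries, against 4.90, 6.51 and 4.38 FPKM across the controls. Knockout replicate 1 lay within the control range, Rnf212 had the widest interval of the 9 genes, and its log2 fold change was 0.85 ± 0.267 (SE) with a limma adjusted p of 0.017. Without that library, which also had the most macrophage, Sertoli and Leydig marker RNA of its group, the value was 1.15 with a limma adjusted p of 0.00075. Ccnb1ip1 (ENSMUSG00000071470, chromosome 14 at 50789248 to 50807732) had 7.39, 9.16 and 7.85 FPKM across the knockout libraries, against 5.66, 6.87 and 5.82 FPKM across the controls. The groups were separate but close, with a log2 fold change of 0.38 ± 0.126 (SE) and a limma adjusted p of 0.021. With reads rescaled the log2 fold changes were 1.70 for Rnf212 and 1.24 for Ccnb1ip1, with limma adjusted p of 0.00059 and 6.2e-05.

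As deposited, the calls on both ligases were close to the threshold. With reads rescaled they were further past it, at limma adjusted p of 0.00059 for Rnf212 and 6.2e-05 for Ccnb1ip1. Leaving out libraries was run on deposited values only. The Rnf212 call was lost, by limma adjusted p, without control replicate 1 (0.066) or 3 (0.074) and without knockout replicate 2 (0.056) or 3 (0.055). For Ccnb1ip1 it was lost without control replicate 1 (0.056) or 3 (0.064) and without knockout replicate 2 (0.084). The log2 fold changes stayed positive in these fits, at 0.66 to 0.81 for Rnf212 and 0.30 to 0.35 for Ccnb1ip1. Rnf212 also had the fewest reads, 81 in control replicate 1, for which counting error alone gave an exact Poisson 95% interval of 64.3 to 100.7. The log2 ratio of Rnf212 over Ccnb1ip1 was -0.23, 0.47 and 0.53 in the knockout libraries and -0.19, -0.07 and -0.37 in the control libraries. It overlapped between the groups, with an exact permutation p of 0.30 for a difference of 0.47. The antisense gene 1700047L14Rik, named from the annotation, lies within Rnf212 without sharing exonic bases, and averaged 0.668 ± 0.490 FPKM in the knockout and 5.02 ± 1.83 FPKM in the controls (SD, n = 3 each). For Ccnb1ip1, 233 exonic bases (12.4% of the gene's) are shared with the RNase P RNA gene Rpph1 on the same strand.

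The late factors Cntd1 and Prr19 had the largest falls. Cntd1 (ENSMUSG00000078653, chromosome 11 at 101279012 to 101296317), which encodes a cyclin-like protein, had 2.23, 3.07 and 2.15 FPKM across the knockout libraries, against 17.4, 15.7 and 17.5 FPKM across the controls. The groups were far apart, control means being 6.78 times knockout means, with a log2 fold change of -2.55 ± 0.141 (SE) and a limma adjusted p of 8.3e-07. Prr19 (ENSMUSG00000058741, chromosome 7 at 25301411 to 25304132), which encodes a proline-rich partner of CNTD1, had 14.2, 12.1 and 15.4 FPKM across the knockout libraries, against 64.8, 56.0 and 69.3 FPKM across the controls. Its control mean was 4.56 times its knockout mean, and the log2 fold change was -2.15 ± 0.122 (SE) with a limma adjusted p of 9.9e-07. Both falls were also called with reads rescaled, at -1.72 for Cntd1 and -1.25 for Prr19, with limma adjusted p of 1.0e-05 and 3.3e-05.

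Prr19 exceeded Cntd1 in all 6 libraries, although both fell. The log2 ratio of Prr19 over Cntd1 was 2.43, 1.82 and 2.58 in the knockout libraries and 1.87, 1.80 and 1.96 in the control libraries. Knockout replicate 2 lay within the control range, and the difference of 0.40 had an exact permutation p of 0.30. The level of Cntd1 has an annotation limit: 3104 of its 4421 exonic bases (70.2%) are also exonic in Becn1, an autophagy gene on the opposite strand named from the annotation, and the counting of strand is not given in the sources used here. Becn1 had 13.6, 13.8 and 13.96 FPKM across the knockout libraries, against 14.4, 13.5 and 15.4 FPKM across the controls, overlapping groups with a log2 fold change of -0.06 (limma adjusted p of 0.56). With reads rescaled Becn1 was called higher, at 0.83 with a limma adjusted p of 4.9e-05, while Cntd1 was called lower under both scalings. A further 82 bases are shared with Coa3 on that strand, and Prr19 overlaps no other annotated gene.

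Mlh3 (ENSMUSG00000021245, chromosome 12 at 85234520 to 85270599), which encodes the endonuclease subunit of MutLgamma, had 4.30, 5.69 and 5.33 FPKM across the knockout libraries, against 10.1, 9.91 and 10.2 FPKM across the controls. The groups were separate, with a log2 fold change of -0.92 ± 0.122 (SE) and a limma adjusted p of 0.00015. This fall depended on the scaling, since with reads rescaled the value was -0.06 (95% interval -0.34 to 0.22, limma adjusted p of 0.64). Mlh3 ranked between 6971 and 8041 in the knockout libraries and between 6472 and 6627 in the control libraries. Where FPKM itself was brought to a total of 1000000 the sign turned, at 0.20 with a limma adjusted p of 0.19. With limma voom on recovered reads the fall was still called, at -0.78 with a limma adjusted p of 0.00021. That fit scaled libraries by the trimmed mean of M-values. Its median over all genes tested, -0.25, lay nearer to -0.41 as deposited than to 0.42 with reads rescaled. It is therefore no separate check of the deposited scaling. Quantile normalization kept the fall too, at -0.29 with a limma adjusted p of 0.048.

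**Figure D3:**
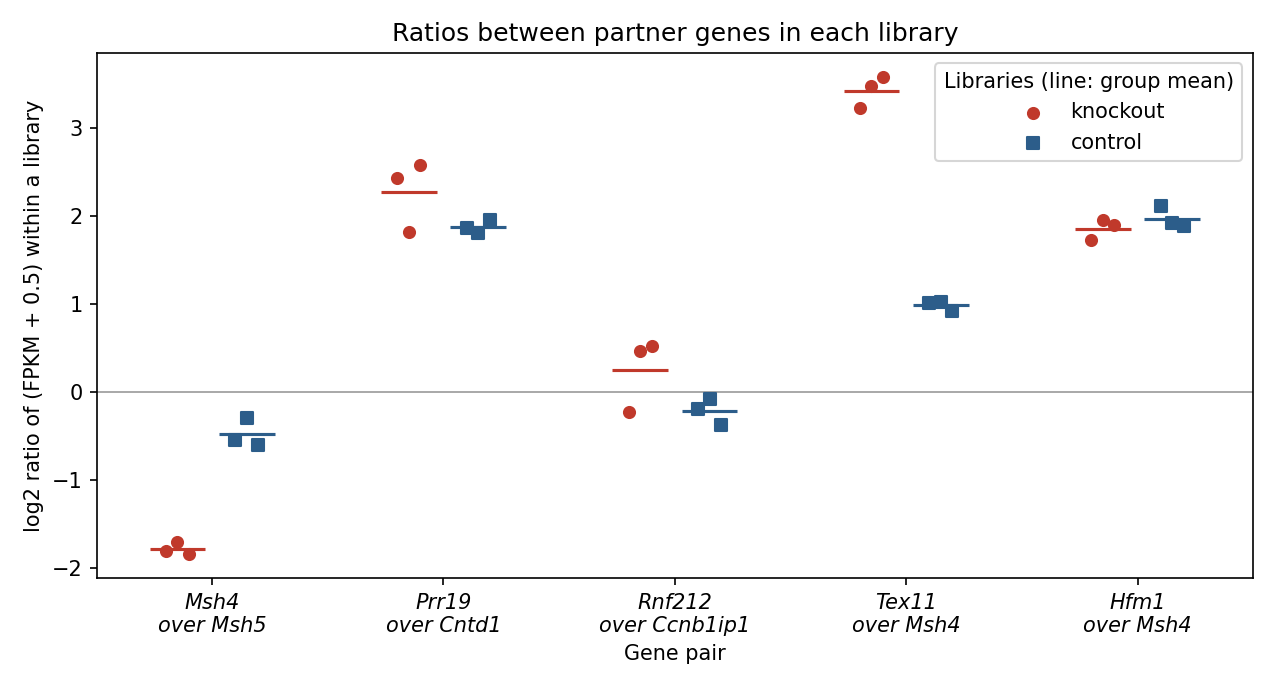
log2 ratio of FPKM + 0.5 between partner genes within each library, for the 3 knockout libraries (circles) and the 3 control libraries (squares), with lines at the group means. Msh4 over Msh5 and Tex11 over Msh4 are separate between the groups, and the other ratios overlap.

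The make-up of the 9 transcripts, as shares of their summed FPKM, also needs no scaling between libraries. Tex11 took 36.9%, 39.2% and 38.9% in the knockout libraries and 5.73%, 7.82% and 5.67% in the control libraries. Prr19 took 13.8%, 9.32% and 12.8% in the knockout libraries and 47.2%, 40.8% and 48.9% in the control libraries. The leading transcript was therefore Tex11 in each knockout library and Prr19 in each control library. Cntd1 took 2.10 ± 0.293% in the knockout and 12.1 ± 0.658% in the controls, and Msh5 took 12.0 ± 1.29% in the knockout and 4.35 ± 0.288% in the controls (SD, n = 3 each). Shares of Hfm1 were 12.7 ± 0.807% in the knockout and 12.98 ± 1.72% in the controls, and those of Msh4 were 3.18 ± 0.322% in the knockout and 3.05 ± 0.541% in the controls. For 7 of the 9 genes the shares did not overlap, where FPKM levels were separate upward in 36.9% and downward in 51.1% of all genes tested, each with an exact permutation p of 0.10 (0.13 adjusted over 9), and the exceptions were Hfm1 (p of 0.90) and Msh4 (p of 0.70). Shares sum to a fixed total, so a fall of Prr19 alone raises the others.

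**Figure D4:**
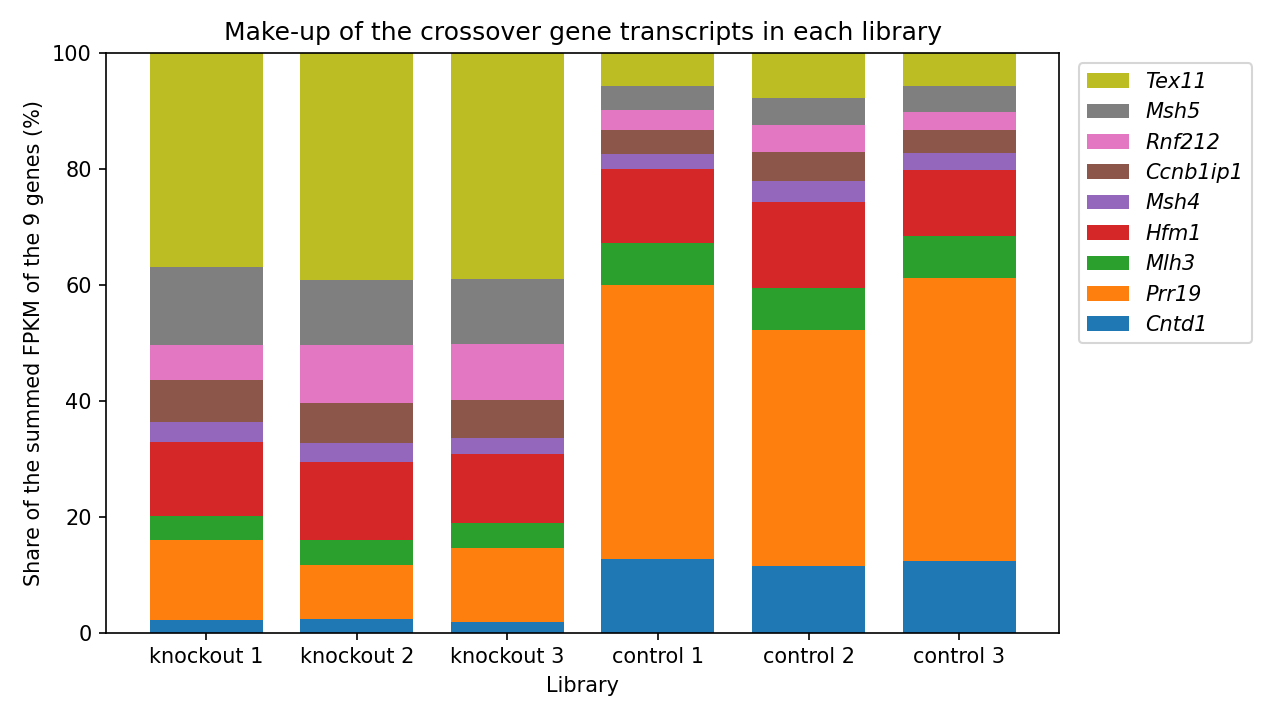
Stacked bars of each gene's share, in percent, of the summed FPKM of the 9 genes in each of the 3 knockout and 3 control libraries. Tex11 fills 36.9% to 39.2% of the knockout bars and Prr19 fills 40.8% to 48.9% of the control bars.

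In order of level per length, the knockout means ran from Tex11 (45.3 FPKM) through Hfm1 (14.9), Msh5 (14.1), Prr19 (13.9), Rnf212 (10.2), Ccnb1ip1 (8.13), Mlh3 (5.10) and Msh4 (3.73) to Cntd1 (2.48). The ranges of Hfm1, Msh5 and Prr19 overlapped, as did those of Prr19 and Rnf212 and of Rnf212 and Ccnb1ip1, while the other neighbours in this order were separate. Among the controls the order was Prr19 (63.4 FPKM), Hfm1 (18.0), Cntd1 (16.9), Mlh3 (10.04), Tex11 (8.89), Ccnb1ip1 (6.12), Msh5 (6.04), Rnf212 (5.26) and Msh4 (4.22). There the ranges of Hfm1 and Cntd1 overlapped, as did those of Mlh3 and Tex11, of Ccnb1ip1, Msh5 and Rnf212, and of Rnf212 and Msh4. Cntd1 was the third highest in the controls and the lowest in the knockout. Its place rests on FPKM over all its exonic bases, most of which are shared with Becn1.

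RefSeq promoter windows of GRCm38.p6, from 250 bases before to 50 after a gene's start, were given for 8 of the 9 genes. They were searched on both strands for TAACNG (the core of MYB sites), CNCCTCAG (a STRA8 motif), TTTCCCGC (E2F), TGACGTCA (CRE) and part of the X-box of RFX factors. Windows are shown for the late factors Prr19 (chr7:25301109-25301408, plus strand) and Cntd1 (chr11:101278953-101279252, plus strand), which fell together, and for the early factors Msh5 (chr17:35046573-35046872, minus strand) and Hfm1 (chr5:106925841-106926140, minus strand). Capitals mark motif matches, and Cntd1 holds none.
Prr19: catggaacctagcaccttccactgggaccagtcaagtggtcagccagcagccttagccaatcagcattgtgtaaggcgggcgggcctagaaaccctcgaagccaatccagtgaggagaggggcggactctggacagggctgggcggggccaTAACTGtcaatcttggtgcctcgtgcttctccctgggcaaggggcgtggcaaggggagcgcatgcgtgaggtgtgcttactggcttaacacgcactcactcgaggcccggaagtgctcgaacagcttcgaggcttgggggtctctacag
Cntd1: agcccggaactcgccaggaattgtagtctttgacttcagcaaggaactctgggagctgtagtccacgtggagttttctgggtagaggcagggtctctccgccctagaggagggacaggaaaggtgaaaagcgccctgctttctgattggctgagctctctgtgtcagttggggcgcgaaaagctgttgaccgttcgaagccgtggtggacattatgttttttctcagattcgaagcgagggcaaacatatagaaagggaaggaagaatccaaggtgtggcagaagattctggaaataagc
Msh5: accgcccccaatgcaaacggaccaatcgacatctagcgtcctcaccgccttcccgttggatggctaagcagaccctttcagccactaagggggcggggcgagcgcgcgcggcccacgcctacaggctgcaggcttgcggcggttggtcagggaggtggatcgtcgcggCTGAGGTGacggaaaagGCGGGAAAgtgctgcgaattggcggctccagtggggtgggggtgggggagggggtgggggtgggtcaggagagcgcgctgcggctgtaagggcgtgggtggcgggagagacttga
Hfm1: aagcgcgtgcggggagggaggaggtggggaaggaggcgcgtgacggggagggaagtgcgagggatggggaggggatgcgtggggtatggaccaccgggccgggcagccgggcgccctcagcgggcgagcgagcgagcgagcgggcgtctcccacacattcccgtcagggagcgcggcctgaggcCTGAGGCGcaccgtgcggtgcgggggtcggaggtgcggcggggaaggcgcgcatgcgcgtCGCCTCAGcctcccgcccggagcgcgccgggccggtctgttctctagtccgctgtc

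The Prr19 window holds 1 match to TAACNG, starting 99 bases before the start, a motif that 23.3% of all 32851 RefSeq promoter windows hold. Msh4 and Ccnb1ip1 hold it too, so it is in the windows of a gene that fell, a gene that rose and a gene that was not called as deposited. With reads rescaled that last gene, Msh4, was called higher. The windows of Ccnb1ip1 (chr14:50795679-50795978, minus strand), Msh4 and Hfm1 lie wholly inside the deposited genes, so they are not at the deposited starts. The Msh5 window holds CNCCTCAG on the minus strand of the window, starting 82 bases before the start, and TTTCCCGC on that strand, starting 65 bases before it. CNCCTCAG occurs in 7.94% and TTTCCCGC in 1.07% of all windows. In the Hfm1 window CNCCTCAG occurs on each strand, starting 66 and 6 bases before the start. The RFX and CRE motifs, in 1.18% and 1.79% of all windows, are in none of the members' windows. A match is a description of letters, not of binding.

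As deposited, other genes of crossover formation moved in both directions, beside 36.2% higher and 50.4% lower among all genes. Of 8 other genes of the interfering crossover pathway tested, 5 rose, 1 fell and 2 were not called by limma. Exo1, an exonuclease that works with MutLgamma, averaged 9.60 ± 0.984 FPKM in the knockout and 2.47 ± 0.371 FPKM in the controls (SD, n = 3 each). AI481877, the table's name for Shoc1, which encodes a partner of the early recombination factors, averaged 13.2 ± 2.07 FPKM in the knockout and 4.35 ± 0.781 FPKM in the controls. Mcm8, a helicase gene, rose with a log2 fold change of 1.02, while its partner Mcm9, named after its value was seen, fell by 0.51 as deposited and was not called with reads rescaled. The median log2 fold change of these 8 genes was 0.77, beside -0.41 over all genes tested. With reads rescaled 7 rose and none fell, with a median of 1.62 beside 0.42 over all genes.

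Of 7 genes tested for nucleases that cut joint molecules outside MutLgamma, 3 were higher and 4 lower, with a median of -0.81. Calls over all genes tested were divided too, with 36.2% higher and 50.4% lower. With reads rescaled 3 were higher and 3 lower, with a median of 0.03. Slx4, a nuclease scaffold, averaged 6.20 ± 0.471 FPKM in the knockout and 41.9 ± 2.52 FPKM in the controls, and Ercc4, a nuclease subunit, averaged 1.75 ± 0.180 FPKM in the knockout and 20.7 ± 2.81 FPKM in the controls (SD, n = 3 each). Mus81 fell and its partner Eme1 rose, with log2 fold changes of -1.36 and 1.34 as deposited and -0.50 and 2.14 with reads rescaled. Of 9 helicases and partners that dissolve or limit joint molecules, 4 rose and 3 fell, with a median of 0.03. With reads rescaled 7 rose and none fell, with a median of 0.89, beside 50.6% higher and 38.9% lower among all genes. Brip1, Fancm and Rmi2 rose, with log2 fold changes of 1.79, 1.16 and 0.96, and Rmi1, whose product binds BLM, fell with a log2 fold change of -1.09 as deposited and was not called with reads rescaled.

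Among 6 relatives of the MutS and MutL members in mismatch repair, 5 rose and 1 fell, with a median log2 fold change of 1.55, and with reads rescaled 5 rose and none fell, with a median of 2.30. Pms2 averaged 7.50 ± 0.489 FPKM in the knockout and 1.55 ± 0.429 FPKM in the controls (SD, n = 3 each). Msh6 rose with a log2 fold change of 1.10. The gene that fell was Msh3, named after its value was seen, at -0.95 as deposited and not called with reads rescaled. With each gene counted once, 16 of the 29 other crossover genes tested rose and 9 fell as deposited, where 36.2% of all genes were higher and 50.4% lower. With reads rescaled 21 rose and 3 fell, where 50.6% of all genes were higher and 38.9% lower.

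**Figure D5:**
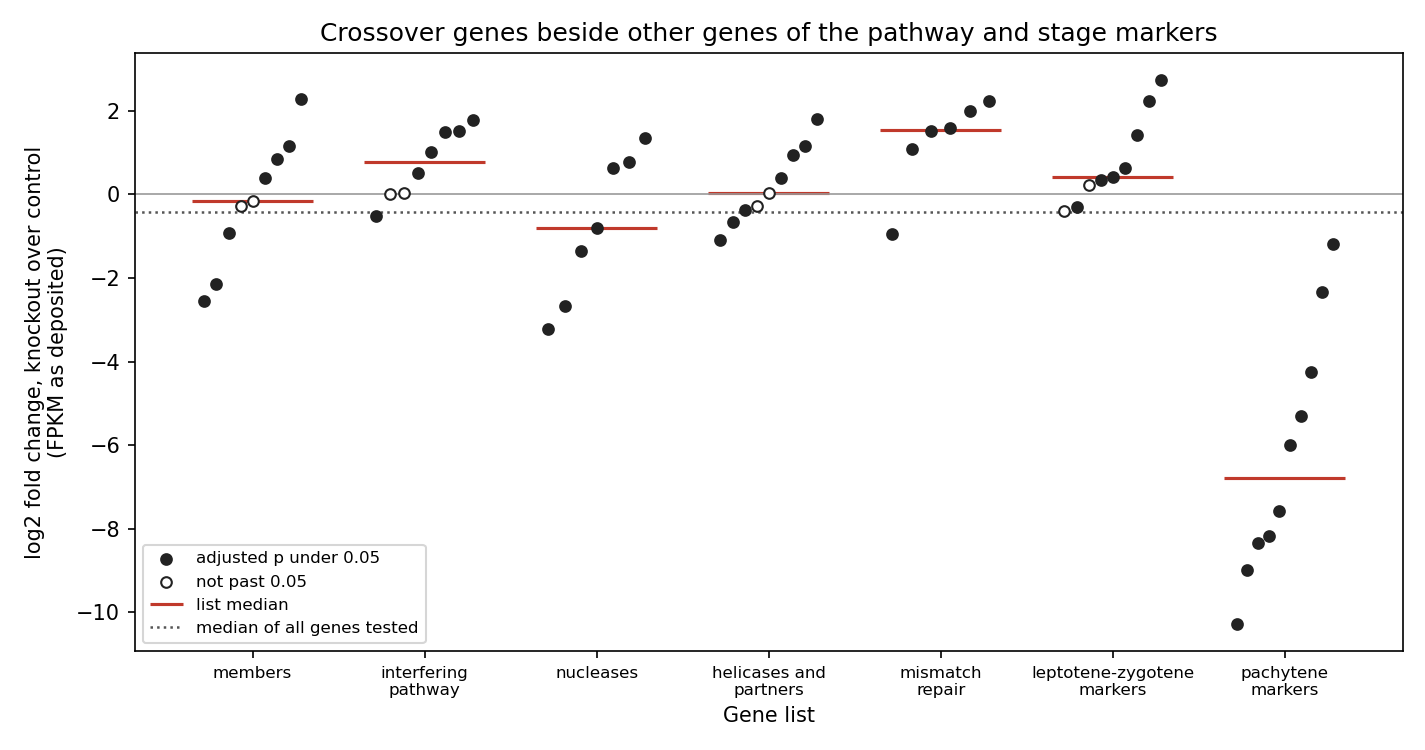
log2 fold change, knockout over control, of each tested gene in the 9 members, 4 other lists of crossover and repair genes and 2 lists of stage markers, with list medians in red and the median of all genes tested dotted. The members run from -2.55 to 2.29, and the pachytene markers all lie below -1.

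Markers of germ cell stages and of other testis cells moved beside these results. Among all genes tested 36.2% were higher and 50.4% lower as deposited, and 50.6% higher and 38.9% lower with reads rescaled. The summed level of 10 pachytene markers was 50.8 to 73.2 FPKM in knockout libraries and 4919.6 to 5902 FPKM in control libraries, and all 10 fell. Ldhc was the largest part of the control sums, at a mean of 2893 FPKM. The smallest change was that of Mybl1, at -1.18 as deposited and -0.28 with reads rescaled. Both were named after their values were seen. Pgk2, a glycolytic kinase of spermatocytes, fell, with a log2 fold change of -10.28 from deposited values and -9.74 after rescaling of reads. The sum of 9 leptotene and zygotene markers was 506.6 to 699.3 FPKM in knockout libraries and 459.7 to 535.7 FPKM in control libraries, with 6 of 9 genes higher and 1 lower as deposited, a median log2 fold change of 0.42, and 9 of 9 higher with reads rescaled. Those with the smallest p, Prdm9, which marks break sites, and Dmc1, the meiotic recombinase, had the largest values of the list, 2.73 and 2.23 as deposited. The one that fell as deposited was the cohesin gene Smc1b, at -0.30 and named after its value was seen. With reads rescaled Smc1b was called higher, at 0.61. Cntd1, Prr19 and, as deposited but not with reads rescaled, Mlh3 fell beside these pachytene markers, and the part of the stage markers' change in the members' values was not tested.

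Spermatogonial markers summed to 604.9 to 721.9 FPKM in knockout libraries and 76.8 to 126.9 FPKM in control libraries, with 8 of 9 genes higher and 1 lower. Spermatid markers summed to 4.50 to 7.51 FPKM in knockout libraries and 15594 to 18167 FPKM in control libraries, and all 9 fell. Markers of the somatic cells were present as well. Sertoli markers (9 of 9 higher) summed to 394.9 to 728.1 FPKM in knockout libraries and 87.2 to 208.2 FPKM in control libraries, and macrophage markers (3 of 6 higher, none lower) to 66.2 to 221.1 FPKM in knockout libraries and 41.9 to 73.0 FPKM in control libraries. Leydig markers, with 1 of 5 tested higher and 3 lower, summed to 14.98 to 66.7 FPKM in knockout libraries and 86.2 to 141.9 FPKM in control libraries. With reads rescaled the calls were 8 higher and 1 lower for spermatogonial, 9 lower for spermatid, 10 lower for pachytene, 9 higher for Sertoli, 5 higher for macrophage, and 1 higher and 2 lower for Leydig markers. The part of these cells in the members' values was not tested.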

How the data were processed

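RNA sequencing libraries of 3 knockout and 3 control samples were grouped by their titles. The submitters' processing notes name the aligner HISAT2 2.0.5 and the build mm10. How reads were counted, and whether by strand, is not given in the sources used here. The authors deposited FPKM values with gene lengths. FPKM times length gave whole reads, within 0.01 read, for 100% of nonzero values in each library. In each library the divisor behind FPKM matched the product of the totals' geometric mean and a size factor, the median of ratios over the 19526 genes that had reads throughout.

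Knockout was compared with control on the scale of log2(FPKM + 0.5) by limma 3.58.1 (R 4.3.3) over the 16791 genes whose mean reached 1 FPKM, with a mean-variance trend and Benjamini-Hochberg adjustment over all of them, at a threshold of 0.05. Fold changes on this scale understate changes of low genes. The model was checked on simulated libraries in which few genes changed, equally in both directions, so the check does not bear on the choice of scaling. Ratios and shares were compared by two-sided exact permutation tests over the 6 libraries; ratios were adjusted over the 6 computed, of which 1 is not reported here. Coordinates are those of the deposited table, and those of all 9 genes equal GENCODE M21, which gave the overlapping genes. Python 3.11.15, numpy 2.4.6, pandas 2.3.3, scipy 1.17.1 and matplotlib 3.10.9 were used.

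Alternatives were other pseudocounts (0.1 and 1), filters (none and 5 FPKM), scalings, a replicate block, limma voom on recovered reads and leaving out each library. The voom fit used library sizes adjusted by the trimmed mean of M-values. The members and lists were chosen with earlier results of these data known. Of 34 other crossover genes listed, 30 were matched by symbol or RefSeq synonym. The text names the 9 members, the title genes and, by smallest p, up to 4 genes of each pathway list and up to 2 of each marker list, of which some are shown, and for each member the gene with the nearest profile.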

Additional observations from a re-analysis of the deposited data

How the results depend on the processing

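The calls for Cntd1, Prr19, Tex11 and Msh5 kept their direction and stayed past the threshold under all alternatives run. The number of members called higher, 4, ranged from 2 to 4 when single libraries were left out, with 2 without control replicate 1, control replicate 3 or knockout replicate 2. It was 6 with FPKM rescaled, quantile normalization and reads rescaled, where 9109, 8745 and 8491 of all genes were higher, against 6075 as deposited. Members called lower, 3 as deposited, numbered 2 with FPKM rescaled and with reads rescaled, and 4 without knockout replicate 2. In those fits 6084, 6527 and 8609 of all genes were lower, against 8462 as deposited. Of the other crossover genes, 8 were called higher with a filter of 5 FPKM, which left 18 of the 29 tested; those called lower numbered 2 with FPKM rescaled to sum to 1000000, 5 under quantile normalization and 3 with reads rescaled. Msh4 turned positive with FPKM rescaled (0.98), voom (0.029), quantile normalization (0.53) and reads rescaled (0.67). Hfm1 turned positive with FPKM rescaled (0.91), quantile normalization (0.56) and reads rescaled (0.63), and Mlh3 with FPKM rescaled (0.20, limma adjusted p of 0.19). FPKM rescaling and quantile normalization raised the median of all genes by 1.12 and 0.94. Apart from those shifts the cause was not tested.

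The replicate block changed no call among the members, with 4 higher and 3 lower, and gave 5930 genes higher and 8364 lower over all genes. The replicate numbers are not said to pair the libraries. Deviations of same-numbered knockout and control libraries correlated at -0.12, -0.05 and -0.04, and no knockout library correlated best with its own number. Such low correlations cannot show whether libraries were paired. Depth limits Rnf212 most, with a half-width of 22.4% at 81 reads, against 3.22% at 3739 reads of Tex11.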

Other observations

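For each member the protein-coding gene outside the lists with the nearest profile over the 6 libraries was found by root mean square difference of centred log2(FPKM + 0.5) among 11832 candidates. It was Exoc1 for Msh5 (0.0259), Nrip3 for Tex11 (0.0340), Tmem219 for Prr19 (0.0369), Usp54 for Ccnb1ip1 (0.0395), Ppa2 for Cntd1 (0.0406), Ddx1 for Mlh3 (0.0538), Ppil3 for Hfm1 (0.0630), Nr2c2 for Msh4 (0.0767) and Zfp583 for Rnf212 (0.144). The profile of Rnf212 was the farthest from its nearest gene among the 9. As reads, the 9 genes together took 0.0586% to 0.0713% of each knockout library and 0.0312% to 0.0373% of each control library, while their summed FPKM as deposited was 103.1 to 130.0 in the knockout and 137.1 to 141.8 in the controls.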
